A study of Mus musculus with 19 samples.

Results

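Fibroblasts of the mouse peritoneum were compared at day 28 and at day 7 of ovarian carcinoma growth in the peritoneal cavity. The comparison used 10 of the 19 libraries of the series, 5 from day 28 and 5 from day 7, chosen by the time point in their labels and by no measured value. All 10 came from C57BL/6;Col1a1-YFP mice, in which the promoter of Col1a1, a collagen I chain, drives yellow fluorescent protein, and which had received tdTomato+ ID8 cells, a mouse ovarian carcinoma line, by intraperitoneal injection. Each library was labelled as a separate biological replicate, and cells were sorted from peritoneum dissociated with enzymes at 37 °C before RNA was extracted. The sort takes cells in which the Col1a1 promoter is active, so cells without collagen I expression lie outside it. Age and sex of the mice were not given in the labels. The other 9 libraries, 5 from normal mice given PBS alone and 4 from an end stage whose day the labels do not give, served for the shared estimate of spread and as background levels. No mice without tumour cells were labelled with a day, so tumour growth, time since injection and the age of the mice cannot be told apart.

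Peritoneal fibroblasts lie beneath the mesothelium, the cell layer that lines the cavity, and they lay down the collagens, fibronectin and laminins of its matrix. Fibroblasts in tumours are known to take on a contractile, matrix-making state with alpha smooth muscle actin, an inflammatory state with interleukin 6 and chemokines, or an antigen-presenting state with MHC class II genes. Interferons add a further programme of antiviral and antigen-presentation genes. The comparison asks which of these programmes differ between an early and a later tumour stage.

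The day 28 libraries were shallower and more scattered than the day 7 libraries. Total counts were 66061, 83998, 172313, 207034 and 400488 in day 28 replicates 1 to 5, against 186495, 254177, 1637902, 799983 and 313890 in day 7 replicates 1 to 5. Of the 5980 genes with enough counts to be tested, 1112 had a count of 0 in at least 1 day 28 library, against 240 in at least 1 day 7 library. A count of 0 allows up to 3 counts, or 45.4 CPM, counts scaled to the same library total, in day 28 replicate 1 and 1.83 CPM in the deepest day 7 library, and this limit covers counting error only. The 2 shallowest libraries stood apart from the rest: day 28 replicate 1 lay at 51.6 on the first principal component and day 28 replicate 2 at -39.3 on the second. Results are therefore given with and without these 2 libraries where they matter. The biological coefficient of variation was 0.376 among day 28 libraries and 0.342 among day 7 libraries. Libraries above 100000 counts were also thinned to that depth, which left day 28 replicates 1 and 2 at their own totals. The coefficient was then 0.360 among day 28 and 0.323 among day 7 libraries. The fibroblast markers Col1a1, Col1a2, Col3a1, Pdgfra, Pdgfrb, Dcn, Lum, Dpt and Thy1 summed to between 23152 and 54930 CPM in day 28 libraries and between 32206 and 40924 CPM in day 7 libraries, and all 9 were detected. The pan-leukocyte marker Ptprc and the macrophage markers Adgre1, Tyrobp and Mrc1 were at 0 in all 5 day 28 libraries, whereas of the 12 macrophage markers Fcgr3 and Mrc1 were at 0 in all 5 day 7 libraries.

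**Figure D1:**
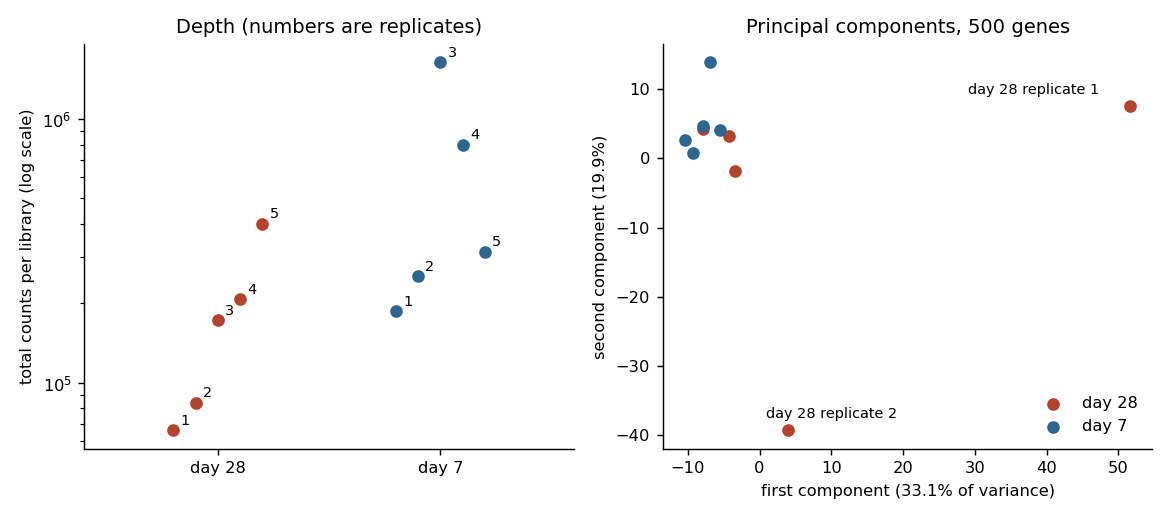
Left, total counts of each library on a log scale, with the replicate number beside each point, for day 28 (red) and day 7 (blue). Right, the first 2 principal components of log2 CPM over the 500 most variable tested genes. Day 28 replicates 1 and 2, the shallowest libraries, lie apart from the other 8.

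No single gene passed the test between day 28 and day 7. With edgeR's quasi-likelihood test and Benjamini-Hochberg adjustment, 0 of 5980 genes were higher at day 28 at an adjusted p under 0.05 (0%) and 0 were lower (0%), and the lowest adjusted p was 0.319. At an unadjusted p under 0.05, 245 genes were higher at day 28, which is 4.10% of those tested, and 293 were lower, which is 4.90%. DESeq2 also called 0 genes, with 570 at an unadjusted p under 0.05 and a lowest adjusted p of 0.120. Without day 28 replicates 1 and 2, edgeR called 0 of 6424 genes, with 260 higher and 265 lower at an unadjusted p under 0.05. In simulated libraries of the same depths the test recovered 92.7% of genes changed 4-fold and 21.3% of genes changed 2-fold. Most changes of 2-fold were thus missed in the simulation. Every simulated gene had the same biological coefficient of variation, 0.334, estimated over all groups. Real genes differ in spread, and day 28 libraries alone had 0.376, so these shares do not give the recovery of real genes.

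The genes described below are therefore differences in level that did not pass correction over all genes, and are given as values. In 24 genes (0.401% of those tested) every day 28 library lay above every day 7 library, and in 56 genes (0.936%) every day 28 library lay below. Of those 56, 17 had a count of 0 in a day 28 library. Across all 5980 genes the log2 fold change, day 28 over day 7, was positive in 2911 and negative in 3069, with a median of -0.01. In a bulk library, fewer cells that express a gene and less of its RNA per cell cannot be told apart.

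**Figure D2:**
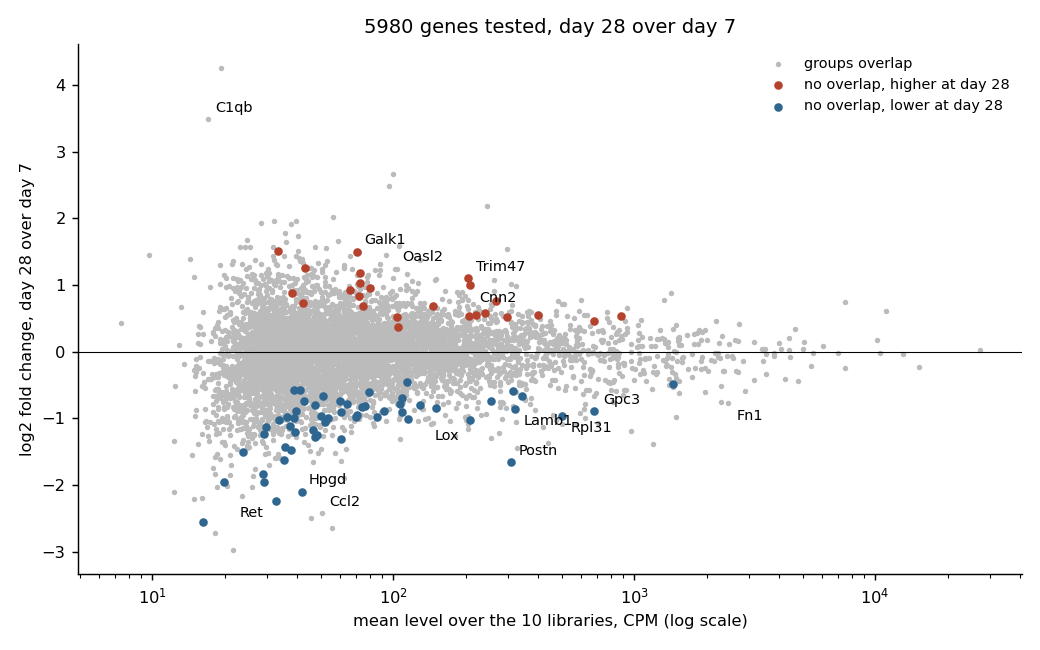
Log2 fold change, day 28 over day 7, against the mean level over the 10 libraries in CPM on a log scale, with 1 point for each of 5980 tested genes. Coloured points are genes whose groups do not overlap, 24 higher at day 28 (red) and 56 lower (blue), and none of the points passed an adjusted p under 0.05 with edgeR.

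Among structural and matricellular matrix genes, the lowest p was that of Postn (ENSMUSG00000027750), which encodes periostin, a matricellular protein of healing wounds and tumour stroma. Postn was at 111, 107, 86.8, 222 and 194 CPM in the day 28 libraries, against 277, 686, 544, 575 and 292 CPM in the day 7 libraries. The highest day 28 library lay below the lowest day 7 library. The log2 fold change was -1.66 ± 0.43 (SE) with an adjusted p of 0.326 by edgeR, and -1.50 without day 28 replicates 1 and 2. Across the stages Postn averaged 181 ± 92.0 CPM in normal (SD, n = 5), 475 ± 182 CPM at day 7 (SD, n = 5), 144 ± 59.6 CPM at day 28 (SD, n = 5) and 496 ± 393 CPM at the end stage (SD, n = 4). The day 28 and normal libraries overlapped in Postn, and the day 28 mean was the lowest of the 4.

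Lamb1 (ENSMUSG00000002900), the laminin beta 1 chain of basement membranes, was at 223, 214, 205, 227 and 265 CPM in day 28 libraries, against 401, 429, 530.3, 369.8 and 334 CPM in day 7 libraries. The groups did not overlap, and the spread within day 28 was narrow. The log2 fold change was -0.86 ± 0.22 (SE), with an adjusted p of 0.319 by edgeR and a value of -0.83 without the 2 libraries that stood apart. Normal libraries held 185 to 215 CPM of Lamb1. In the same model Lamb1 rose at day 7 relative to normal by 1.06 ± 0.21 on the log2 scale with an adjusted p of 0.0455 by edgeR, while its day 28 value relative to normal was 0.20 ± 0.22 with an adjusted p of 0.899. These comparisons share libraries and are given side by side.

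Fn1 (ENSMUSG00000026193), which encodes fibronectin, was at 1573, 1459.9, 1916, 1481 and 2572 CPM in day 28 libraries, against 2138, 2496, 5034, 2826 and 2947 CPM in day 7 libraries. Its groups overlapped through day 28 replicate 5, and its log2 fold change was -0.77 ± 0.26 (SE, adjusted p = 0.423 by edgeR). Without day 7 replicate 3 the value was -0.52. Lox (ENSMUSG00000024529), the lysyl oxidase that cross-links collagen and elastin, was at 175, 178, 124, 70.3 and 156 CPM in day 28 libraries, against 289, 215, 306, 273 and 302 CPM in day 7 libraries. Every day 28 library lay below every day 7 library in Lox, with a log2 fold change of -1.02 ± 0.29 (SE, adjusted p = 0.344 by edgeR). The day 7 mean of Lox, 277 CPM, was close to the normal mean of 279.5 CPM, and the day 28 mean was 140.5 CPM.

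The genes of the fibrillar collagens themselves did not separate. Col1a1 averaged 2188 CPM at day 28 and 2332 CPM at day 7, with a log2 fold change of -0.10 ± 0.36 (SE, adjusted p = 0.969 by edgeR), and the largest value of Col1a1 was that of day 28 replicate 2 at 4653 CPM. Col3a1, the collagen III chain, had a log2 fold change of 0.17 ± 0.23 (SE). Of 37 tested structural and matricellular matrix genes, 0 were called, 11 had a positive and 26 a negative log2 fold change, and the median was -0.13 beside -0.01 over all genes. Without day 28 replicates 1 and 2, 6 were positive and 31 negative, with a median of -0.22. At an unadjusted p under 0.05 there were 2 positive genes of the 37, Thbs2 and Fmod, beside 4.10% of all genes, and 4 negative ones, Postn, Fn1, Fbn1 and Col8a1, beside 4.90%. Thbs2, which encodes thrombospondin 2, was at 429, 807, 694, 751 and 354 CPM at day 28, against 242, 345, 429, 384 and 369 CPM at day 7, and the groups overlapped. Fbn1, the fibrillin 1 of elastic microfibrils, had a log2 fold change of -0.54 ± 0.22 (SE, adjusted p = 0.507 by edgeR).

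The 14 tested basement membrane genes depended on the 2 libraries that stood apart. With all libraries 6 were positive and 8 negative, with a median of -0.03. Without day 28 replicates 1 and 2, 1 was positive and 13 negative, with a median of -0.36, and 0 were called in either case. Lamc1, the laminin gamma 1 chain that assembles with Lamb1, had a log2 fold change of -0.43 ± 0.24 (SE, adjusted p = 0.611 by edgeR), and Nid1, the nidogen that links laminin to collagen IV, -0.27 ± 0.22. Of 19 tested genes of collagen modification, 10 were positive and 9 negative, with a median of 0.03. Loxl2, a relative of Lox, was at 143, 451, 217, 292 and 184 CPM at day 28, against 289, 467, 455, 382 and 341 CPM at day 7. Crtap, a subunit of the collagen prolyl 3-hydroxylase complex, had a log2 fold change of 0.71 ± 0.27 (SE, adjusted p = 0.460 by edgeR). Among 12 tested proteases and inhibitors, 8 were positive and 4 negative, and Adamts4, a proteoglycan-cleaving protease, was at 63.6, 35.6, 24.8, 16.2 and 12.7 CPM at day 28, against 147, 168, 59.9, 58.1 and 38.6 CPM at day 7.

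**Figure D3:**
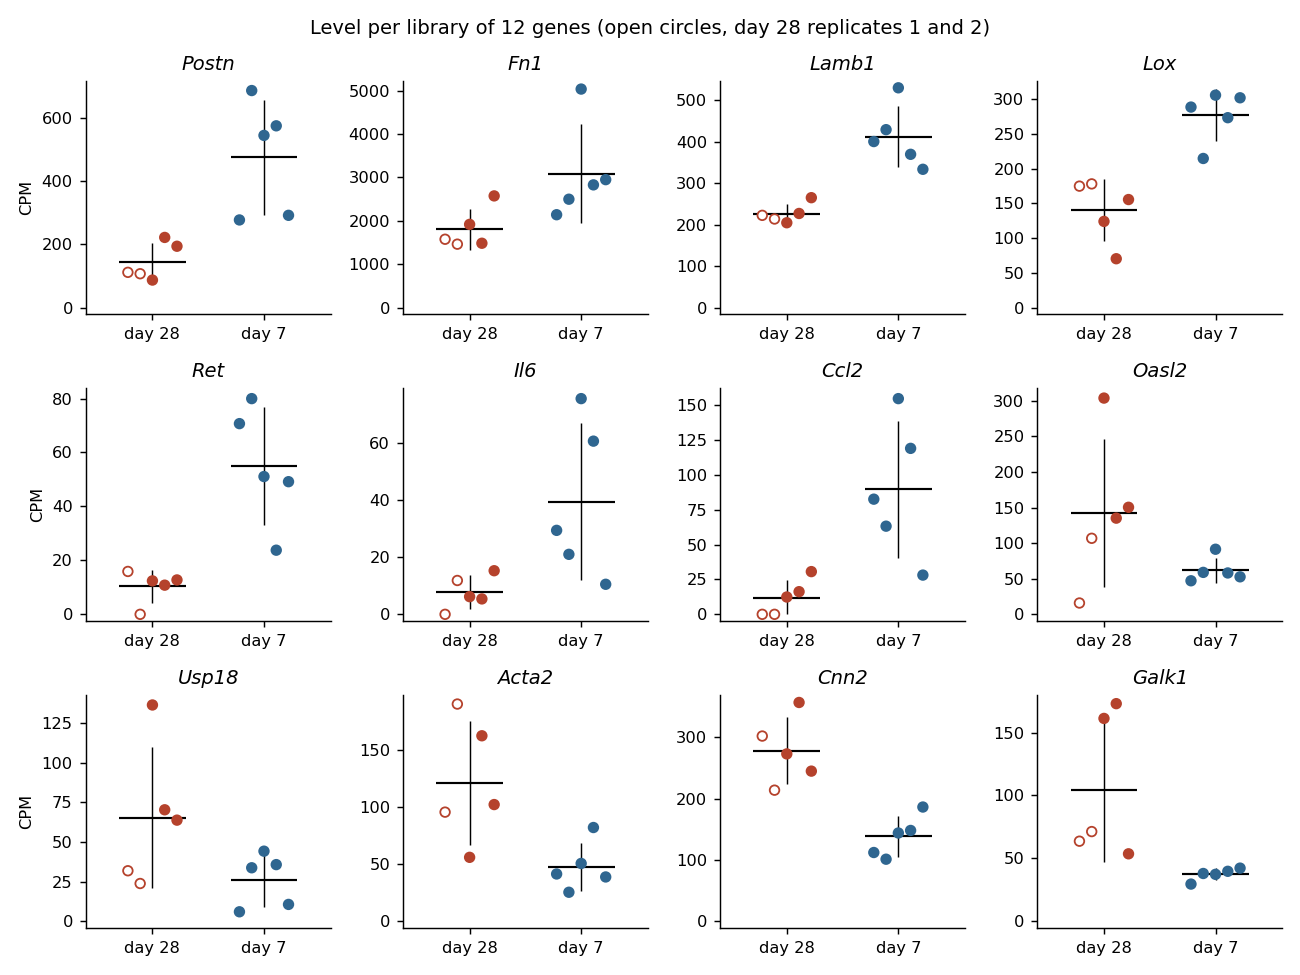
Level in CPM of 12 genes in each library, day 28 (red) left of day 7 (blue) in each panel, with the mean (bar) and SD (vertical line, n = 5). Open circles are day 28 replicates 1 and 2. In Postn, Lamb1, Lox and Ret all day 28 points lie below all day 7 points, in Cnn2 and Galk1 all lie above, and in the other 6 genes the groups overlap.

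Contractile genes leaned higher at day 28. Of 18 tested genes, 0 were called, 14 had a positive and 4 a negative log2 fold change, with a median of 0.13 beside -0.01 over all genes, and 5 of the 18 were positive at an unadjusted p under 0.05 against 0 negative, beside 4.10% and 4.90% of all genes. The summed level of the list was 4556, 4500.1, 3946, 3521 and 3793 CPM of all counts in day 28 libraries, against 3432, 3230.03, 3189, 3465 and 3466 CPM in day 7 libraries. Of 40 gene lists with a member in the table it was the only one whose sums did not overlap between the groups. Acta2 (ENSMUSG00000035783), the alpha smooth muscle actin of myofibroblasts, was at 95.3, 190, 55.8, 162 and 102 CPM at day 28, against 41.2, 25.2, 50.5, 81.9 and 38.6 CPM at day 7. The Acta2 groups overlapped, and the log2 fold change was 1.23 ± 0.49 (SE, adjusted p = 0.504 by edgeR). In normal libraries Acta2 was at 46.2, 287, 37.1, 66.6 and 138 CPM, which overlapped both groups and spanned the whole day 28 range. Tagln, the actin-binding transgelin, was at 63.6, 214, 55.8, 124 and 61.2 CPM at day 28, all above 53.02, 16.8, 44.8, 54.1 and 42.1 CPM at day 7. Cnn2 (ENSMUSG00000004665), the actin-binding calponin 2, was at 302, 214, 273, 357 and 245 CPM at day 28, against 112, 101, 144, 148 and 186 CPM at day 7, with a log2 fold change of 0.99 ± 0.27 (SE, adjusted p = 0.319 by edgeR). Pdlim7, a scaffold of actin fibres, had a log2 fold change of 1.07 ± 0.34 (SE, adjusted p = 0.423 by edgeR). The 2 highest sums of the list were those of day 28 replicates 1 and 2, the libraries that stood apart. Without them, 12 contractile genes were positive and 6 negative, with a median of 0.08. At an unadjusted p under 0.05 by edgeR there were then 2 positive and 1 negative, beside 260 and 265 of all 6424 genes. Smooth muscle cells share several of the contractile genes. Myh11, a myosin of smooth muscle, was at 79.4, 71.2, 55.8, 48.6 and 38.2 CPM at day 28, against 17.7, 12.6, 13.2, 21.1 and 66.7 CPM at day 7, and the 9 pericyte and smooth muscle markers summed to between 203 and 636 CPM at day 28 and between 211 and 430.1 CPM at day 7. None of these 9 was at 0 throughout either group, and their part in the contractile genes was not tested.

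Several inflammatory genes had lower levels at day 28, with overlap between the groups. Il6 (ENSMUSG00000025746), which encodes the cytokine interleukin 6, had 0, 1, 1, 1 and 6 counts in day 28 libraries, or 0 to 15.3 CPM, against 5, 5, 120, 46 and 3 counts in day 7 libraries, or 10.5 to 75.7 CPM. The counts were few and the groups overlapped, with a log2 fold change of -2.16 ± 0.80 (SE, adjusted p = 0.460 by edgeR) and a value of -2.08 without day 28 replicates 1 and 2. Ccl2 (ENSMUSG00000035385), a chemokine that attracts monocytes, had 0, 0, 2, 3 and 12 counts at day 28, against 14, 15, 245, 90 and 8 counts at day 7, with a log2 fold change of -2.43 ± 0.90 (SE, adjusted p = 0.477 by edgeR). Normal libraries spanned most of that range, from 5.78 to 74.6 CPM in Il6 and from 0 to 141 CPM in Ccl2. Cxcl1, a chemokine for neutrophils, was at 413, 249, 136, 297 and 517 CPM at day 28, against 471, 463, 1004, 1074 and 389.8 CPM at day 7. The highest Il6, Ccl2 and Cxcl1 values at day 7 were those of replicates 3 and 4, the 2 deepest libraries.

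Csf1, the macrophage growth factor, lay the other way, at 413, 700.3, 763, 681 and 602 CPM at day 28, against 418, 387, 390.3, 337 and 400.4 CPM at day 7. In Csf1 only day 28 replicate 1 lay within the day 7 range, and the log2 fold change was 0.72 ± 0.22 (SE, adjusted p = 0.393 by edgeR). Of 11 tested cytokines and chemokines, 5 were positive and 6 negative, with a median of -0.18. Of 15 tested genes of the NF-kB and acute phase list, 4 were positive and 11 negative, with a median of -0.31, and with the same counts and a median of -0.19 without the 2 libraries that stood apart. Tnfaip6, a hyaluronan-binding protein induced by tumour necrosis factor, was at 31.8, 94.9, 248, 151 and 268 CPM at day 28, against 229.7, 303, 510.1, 429 and 165 CPM at day 7. Nfkbia, the inhibitor that NF-kB induces against itself, had a log2 fold change of -0.58 ± 0.26 (SE, adjusted p = 0.537 by edgeR).

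Interferon-stimulated genes leaned higher at day 28, most of all in day 28 replicate 3. Oasl2 (ENSMUSG00000029561), a relative of the antiviral oligoadenylate synthetases, was at 15.9, 107, 304, 135 and 150.4 CPM in day 28 libraries, against 47.1, 58.9, 91.4, 58.1 and 52.7 CPM in day 7 libraries. Day 28 replicates 2 to 5 lay above every day 7 library, and replicate 1, at a single count, lay below. The log2 fold change of Oasl2 was 1.24 ± 0.36 (SE, adjusted p = 0.348 by edgeR), 1.58 without day 28 replicates 1 and 2, and 0.82 without day 28 replicate 3. Normal libraries held 66.2 to 162 CPM of Oasl2, which overlapped both groups.

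Usp18 (ENSMUSG00000030107), the protease that removes the ubiquitin-like ISG15 and limits interferon signalling, was at 31.8, 23.7, 136, 70.3 and 63.7 CPM at day 28, against 5.89, 33.7, 44.1, 35.7 and 10.5 CPM at day 7. Its groups overlapped through the 2 shallow libraries, and its log2 fold change was 1.25 ± 0.45 (SE, adjusted p = 0.452 by edgeR), 1.56 without them and 0.85 without day 28 replicate 3. Cmpk2, a mitochondrial nucleotide kinase, had a log2 fold change of 1.44 ± 0.48 (SE, adjusted p = 0.423 by edgeR), and was at 31.8, 71.2, 99.2, 48.6 and 45.9 CPM at day 28, against 17.7, 8.42, 33.4, 22.4 and 17.6 CPM at day 7. Only day 28 replicate 1 of Cmpk2 lay within the day 7 range. Of 28 tested interferon-stimulated genes, 0 were called, 21 were positive and 7 negative, with a median of 0.17, and 7 of the 28 were positive against 1 negative at an unadjusted p under 0.05, beside 4.10% and 4.90% of all genes. Without day 28 replicates 1 and 2, 23 were positive and 5 negative, with a median of 0.47. Leaving out day 28 replicate 3 gave a median of 0.13. The list summed to 2573, 2762, 6233, 3637 and 4534 CPM of all counts in day 28 libraries. Its sums in day 7 libraries were 3153, 2813, 4173, 3390 and 2673 CPM, and the groups overlapped. Day 28 replicate 1 had the lowest sum of the 10 libraries and day 28 replicate 3 the highest. The negative gene at an unadjusted p under 0.05 was Irf1, a transcription factor of the interferon response, with a log2 fold change of -0.82, so the list did not lean one way throughout.

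Promoters are shown for this list because interferon-stimulated genes are known to share a response element. The motif GAAANNGAA, the core of the interferon-stimulated response element, was searched on both strands from 250 bases before to 50 after each start in RefSeq (GRCm38.p6, another build than the counts). Of the 28 tested genes 21 had a sequence, and 13 of these held the motif (61.9%), against 9.76% of all 27025 genes with a sequence. The windows of Oasl2, Cmpk2, Ifi35, Irf9 and Irf1 did not hold these letters. The genes with the smallest p that held them were Igtp, an interferon-inducible GTPase, and Ifit1, an antiviral RNA-binding protein. Their unadjusted p by edgeR was 0.0128 for Igtp and 0.0625 for Ifit1. Of the 13 genes with the motif, only Igtp thus had an unadjusted p under 0.05. Igtp (chr11:58199306-58199605, plus strand) held 1 match, 34 bases before the start, and Ifit1 (chr19:34640639-34640938, plus strand) held 3 matches on the minus strand, 109, 103 and 84 bases before it, the first 2 of which overlap. Capitals mark the matches, and in Ifit1 they read as the reverse complement of the motif.
Igtp: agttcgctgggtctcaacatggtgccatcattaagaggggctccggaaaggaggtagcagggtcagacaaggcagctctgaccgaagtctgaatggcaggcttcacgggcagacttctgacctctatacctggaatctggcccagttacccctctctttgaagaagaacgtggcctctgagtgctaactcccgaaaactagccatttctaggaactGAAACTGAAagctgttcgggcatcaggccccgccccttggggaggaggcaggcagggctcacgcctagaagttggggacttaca
Ifit1: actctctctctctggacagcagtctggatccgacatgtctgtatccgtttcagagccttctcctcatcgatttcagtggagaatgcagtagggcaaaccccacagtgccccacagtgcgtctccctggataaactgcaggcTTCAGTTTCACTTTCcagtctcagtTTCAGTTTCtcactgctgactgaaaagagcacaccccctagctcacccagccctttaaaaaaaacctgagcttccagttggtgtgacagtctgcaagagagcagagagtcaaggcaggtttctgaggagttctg
Igtp was at 47.7, 71.2, 155, 54.0 and 40.8 CPM at day 28, against 11.8, 33.7, 51.1, 43.6 and 10.5 CPM at day 7, and Ifit1 was at 31.8, 0, 105, 54.0 and 25.5 CPM at day 28, against 17.7, 0, 42.9, 21.1 and 7.02 CPM at day 7. In both genes day 28 replicate 3 was the highest of the 10 libraries and the groups overlapped, with log2 fold changes of 1.12 ± 0.42 (SE, adjusted p = 0.460 by edgeR) in Igtp and 1.09 ± 0.57 (SE, adjusted p = 0.585 by edgeR) in Ifit1. A match describes the letters of these windows and shows no binding.

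Genes of antigen presentation were mostly positive and varied widely between libraries. Of 14 tested MHC class I and peptide-loading genes, 9 were positive and 5 negative, with a median of 0.19, and 12 were positive and 2 negative without the 2 libraries that stood apart. Tapbp, which encodes tapasin of the peptide-loading complex, was at 1065, 451, 911, 643 and 696 CPM at day 28, against 589, 396, 355, 347 and 530.3 CPM at day 7. Cd74, the invariant chain of MHC class II, was at 47.7, 11.9, 93.0, 48.6 and 20.4 CPM at day 28, against 29.5, 42.1, 13.2, 15.9 and 10.5 CPM at day 7, with a log2 fold change of 1.16 ± 0.53 (SE, adjusted p = 0.546 by edgeR). Without day 28 replicate 3 it was 0.64. The 4 tested MHC class II genes were all positive, with a median of 0.92, but their summed level overlapped widely. The list of 7 class II genes summed to 151, 47.6, 615, 232 and 215 CPM at day 28, against 365, 268, 49.5, 43.8 and 137 CPM at day 7.

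Macrophage transcripts were also highest in day 28 replicate 3. The 12 macrophage markers summed to 136, 0, 267, 53.1 and 87.4 CPM at day 28, against 42.9, 70.8, 53.1, 36.3 and 63.7 CPM at day 7. C1qb, a chain of complement C1q that macrophages make, was at 149 CPM in day 28 replicate 3, at 10.2 CPM in replicate 5 and at 0 in the other 3 day 28 libraries, against 0 to 3.96 CPM in day 7 libraries. Its log2 fold change of 3.49 ± 0.98 (SE, adjusted p = 0.344 by edgeR) thus rests on 1 library. The part of macrophage transcripts in the class II and interferon-stimulated values of that library was not tested.

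Genes of cytosolic ribosomal proteins leaned lower at day 28. Of 79 tested genes of cytosolic ribosomal proteins, 0 were called, 10 were positive and 69 negative, with a median of -0.41 beside -0.01 over all genes, and 21 of the 79 were negative at an unadjusted p under 0.05 against 0 positive, beside 4.90% and 4.10% of all genes. Their summed share of counts was 5.95% ± 0.68 at day 28 and 6.98% ± 1.18 at day 7 (SD, n = 5 each), and the groups overlapped. Rpl31, a protein of the large subunit, was at 286, 166, 440.2, 357 and 423 CPM at day 28, against 707, 463, 824, 862 and 471 CPM at day 7, with no overlap and a log2 fold change of -0.96 ± 0.26 (SE, adjusted p = 0.319 by edgeR). Rps12, of the small subunit, was at 334, 475, 489.8, 557 and 1417 CPM at day 28, against 1043, 1351, 2841, 2695 and 804 CPM at day 7, and it overlapped through day 28 replicate 5. The largest ribosomal sums were those of day 7 replicates 3 and 4, the 2 deepest libraries, and the lowest were those of day 28 replicates 1 and 2, the 2 shallowest. After thinning the deeper libraries to 100000 counts, which left the 2 shallowest as they were, the median was -0.38. Without day 28 replicates 1 and 2, 17 genes were positive and 62 negative, with a median of -0.35. Of the 27 tested translation factors, 10 were positive and 17 negative, with a median of -0.11, and there were 13 positive and 14 negative without day 28 replicates 1 and 2. Ribosomal protein genes have many near-identical pseudogenes, so single counts among them are uncertain.

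Mitochondrial genes leaned the same way. All 6 tested protein genes of the mitochondrial genome were negative, with a median of -1.002, and -1.09 without the 2 libraries that stood apart, and 0 were called. The 7 genes of the list summed to 1635, 1083, 795, 2236 and 422 CPM at day 28, against 3126, 2553, 2257, 2993 and 1217 CPM at day 7. Only day 7 replicate 5 lay within the day 28 range. mt-Cytb, the cytochrome b subunit of complex III, was at 636, 522, 291, 589 and 191 CPM at day 28, against 966, 804, 709, 952 and 499 CPM at day 7, with a log2 fold change of -0.86 ± 0.34 (SE, adjusted p = 0.504 by edgeR). Of 68 tested nuclear genes of oxidative phosphorylation, 21 were positive and 47 negative, with a median of -0.25. Ndufa6, a subunit of complex I, was at 47.7, 59.3, 99.2, 97.3 and 125 CPM at day 28, against 188, 84.2, 202, 227 and 228 CPM at day 7, and its log2 fold change was -1.01 ± 0.30 (SE, adjusted p = 0.348 by edgeR). Of 17 tested genes of hypoxia and glycolysis, 15 were positive and 2 negative, with a median of 0.28, and 12 were positive and 6 negative among 18 tested without day 28 replicates 1 and 2. Eno1, the glycolytic enolase, had a log2 fold change of 0.99 ± 0.45 (SE, adjusted p = 0.547 by edgeR).

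Stress-induced genes leaned lower with wide overlap. Of 26 tested immediate-early genes, which dissociation of tissue is known to induce, 5 were positive and 21 negative, with a median of -0.27. Their sum took 3.62% ± 0.79 of counts at day 28 and 3.93% ± 0.52 at day 7 (SD, n = 5 each), and the largest sum of the 10 libraries was that of day 28 replicate 5. Gadd45b, a stress sensor that NF-kB also induces, was at 350, 439, 285, 314 and 632 CPM at day 28, against 1272, 556, 564, 699.9 and 818 CPM at day 7. In Gadd45b only day 28 replicate 5 reached the day 7 range. Of 18 tested genes of the unfolded protein response, 4 were positive and 14 negative, with a median of -0.31, and Hsp90b1, a chaperone of the endoplasmic reticulum, had a log2 fold change of -0.88 ± 0.35 (SE, adjusted p = 0.497 by edgeR).

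**Figure D4:**
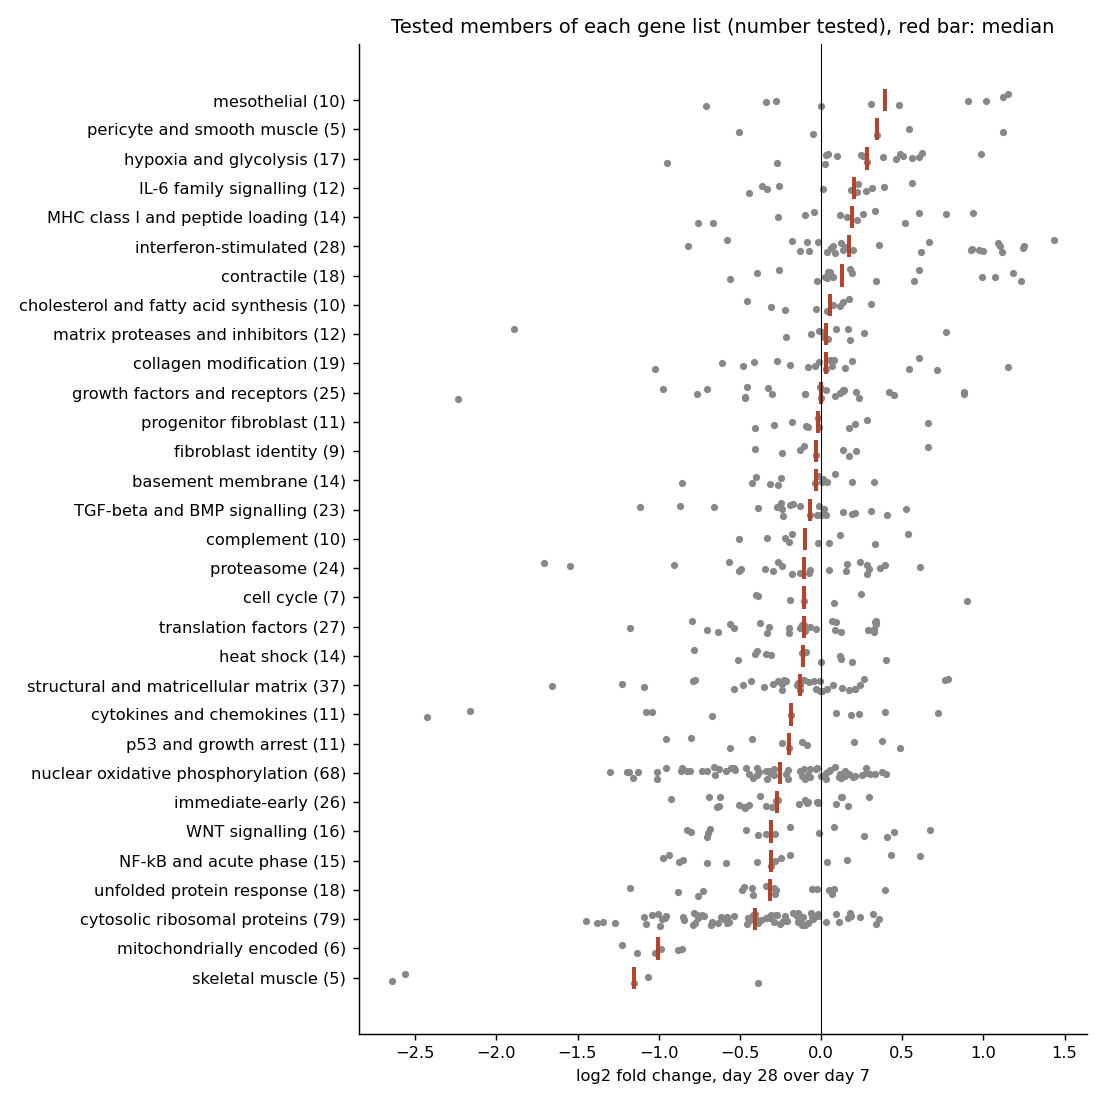
Log2 fold change, day 28 over day 7, of each tested member (grey points) of the gene lists with at least 5 tested members, with the number tested in brackets and the median as a red bar. Medians run from -1.15 for skeletal muscle markers and -1.002 for mitochondrially encoded genes to 0.40 for mesothelial markers, beside a median of -0.01 over all genes, and no member passed an adjusted p under 0.05 with edgeR.

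Among growth factors and receptors, the lowest p was that of Ret. Ret (ENSMUSG00000030110), a receptor tyrosine kinase of the glial cell line-derived neurotrophic factor family, had 1, 0, 2, 2 and 5 counts in day 28 libraries, or 0 to 15.9 CPM, against 12, 19, 81, 18 and 14 counts in day 7 libraries, or 23.8 to 80.0 CPM. The groups did not overlap in CPM, and every day 7 library had more counts of Ret than any day 28 library. The log2 fold change of Ret was -2.24 ± 0.57 (SE, adjusted p = 0.319 by edgeR) and -2.11 without day 28 replicates 1 and 2. Relative to normal, at 6.41 to 11.6 CPM, Ret rose at day 7 by 2.55 ± 0.51 on the log2 scale with an adjusted p of 0.0455 by edgeR, and at day 28 its value relative to normal was 0.31 ± 0.67 with an adjusted p of 0.948. Gfra1, a co-receptor of Ret, lay the other way, at 63.6, 119, 74.4, 103 and 33.1 CPM at day 28, against 53.02, 16.8, 46.0, 48.9 and 31.6 CPM at day 7. Gas6, the ligand of the Axl receptor, had a log2 fold change of 0.88 ± 0.29 (SE, adjusted p = 0.423 by edgeR). Of 16 tested WNT signalling genes, 5 were positive and 11 negative, with a median of -0.31, and of 23 tested genes of TGF-beta and BMP signalling, 8 were positive and 15 negative, with a median of -0.07.

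Outside these programmes, the 12 higher and 12 lower genes with the smallest p and no overlap came from many functions. Hpgd, the enzyme that inactivates prostaglandins, was at 31.8, 23.7, 0, 5.40 and 22.9 CPM at day 28, against 82.5, 42.1, 79.5, 51.5 and 77.3 CPM at day 7, with a log2 fold change of -2.10 ± 0.52 (SE, adjusted p = 0.319 by edgeR). Gpc3, a cell-surface heparan sulphate proteoglycan, was at 493, 558, 298, 589 and 466 CPM at day 28, against 972, 795, 879, 1175 and 604 CPM at day 7, with a log2 fold change of -0.89 ± 0.25 (SE, adjusted p = 0.344 by edgeR). Both separated fully, and their values without day 28 replicates 1 and 2 were -2.42 for Hpgd and -0.98 for Gpc3. The other lower genes were Fbxo8, Lyar, Ncoa1, Wnk1 and Dph3, between -1.95 and -1.25, beside Postn, Lamb1, Lox, Ret and Rpl31 above.

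Galk1, the galactokinase of galactose breakdown, was at 63.6, 71.2, 161, 173 and 53.5 CPM at day 28, against 29.5, 37.9, 37.2, 39.6 and 42.1 CPM at day 7, with a log2 fold change of 1.499 ± 0.37 (SE, adjusted p = 0.319 by edgeR). Normal libraries of Galk1 ran from 29.0 to 86.7 CPM and overlapped both groups. Trim47, a ubiquitin ligase of the tripartite motif family, was at 604, 202, 167, 249 and 196 CPM at day 28, against 135, 126, 100.3, 120.2 and 148 CPM at day 7. Its log2 fold change of 1.10 ± 0.29 (SE, adjusted p = 0.319 by edgeR) leaned on day 28 replicate 1 and was 0.71 without replicates 1 and 2. Pink1, a kinase that marks damaged mitochondria for removal, was at 365, 273, 335, 340.5 and 347 CPM at day 28, against 242, 177, 169, 177 and 232 CPM at day 7. Beside Cnn2, the other higher genes were Slc12a9, Smap2, Ppme1, Tbc1d17, Phf12, Ywhag, Cltb and Npdc1, between 0.55 and 1.503.

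No marker sum of another cell type separated the groups. The 14 mesothelial markers in the table summed to between 472 and 816 CPM at day 28 and between 254 and 954 CPM at day 7, and 7 of the 10 tested were positive, with a median of 0.40, which was 0.05 without day 7 replicate 3. Msln, mesothelin, was at 254, 59.3, 80.6, 64.9 and 30.6 CPM at day 28, against 76.6, 29.5, 23.3, 48.9 and 38.6 CPM at day 7. The 11 skeletal muscle markers, a sign of the body wall muscle under the peritoneum, summed to 333, 143, 151, 77.3 and 149.8 CPM at day 28, against 450.4, 346, 279, 420.0 and 274 CPM at day 7. Only day 28 replicate 1 reached the day 7 range, and all 5 tested members were negative, such as Tnnt3, a troponin of fast muscle, with a log2 fold change of -2.64 ± 0.79 (SE, adjusted p = 0.393 by edgeR). The 8 endothelial markers summed to between 179 and 328 CPM at day 28 and between 94.4 and 185 CPM at day 7. Only day 28 replicate 2 lay within the day 7 range of the endothelial sum. The 5 erythrocyte genes summed to between 63.8 and 378 CPM at day 28 and between 172 and 504 CPM at day 7. Schwann cell markers summed to between 203 and 854 CPM at day 28 and between 90.4 and 430 CPM at day 7. Adipocyte markers summed to between 59.5 and 188 CPM at day 28 and between 98.8 and 306 CPM at day 7. Of the 11 T and NK cell markers looked for, 0 had a value here, so that list gave no level. The part of these cells in the other gene lists was not tested.

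**Figure D5:**
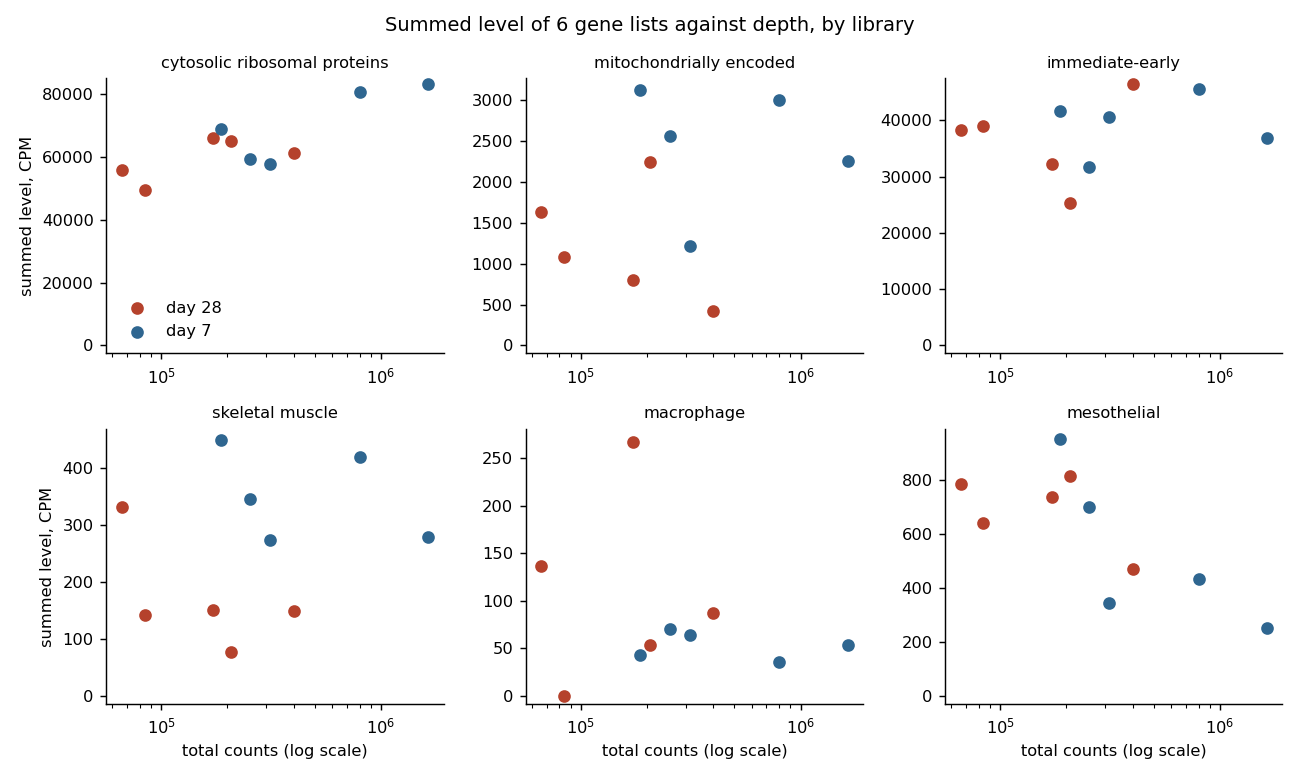
Summed level in CPM of all counts for 6 gene lists in each library, against its total counts on a log scale, for day 28 (red) and day 7 (blue). Ribosomal sums are highest in the 2 deepest day 7 libraries and lowest in the 2 shallowest day 28 libraries, the skeletal muscle sum is lower in 4 of 5 day 28 libraries than in any day 7 library and the mitochondrial sum in 3 of 5, and the macrophage sum is highest in day 28 replicate 3.

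The call of single genes depended on the test. limma-voom with sample quality weights called 19 genes higher (0.318%) and 11 lower (0.184%) at day 28. Its weights were not lowest for the 2 libraries that stood apart, at 1.58 and 1.35 for day 28 replicates 1 and 2, and ran from 0.608 to 1.96 over the 10 libraries. limma-voom without weights called 0, with 314 higher and 250 lower at an unadjusted p under 0.05. By limma-voom with weights Postn fell by 1.84 on the log2 scale, with an adjusted p of 0.0296. The other genes it called lower were Lamb1, Gpc3, Lpar1, Qpct, S100a10 and 5 ribosomal protein genes, Rpl17, Rpl26, Rpl31, Rps12 and Rps20. Among those it called higher were the homeobox gene Gsc, the mitochondrial import gene Timm50, Pdlim7, the retinoic acid receptor Rara, and the class II chains H2-Aa and H2-Ab1. For H2-Ab1 it gave a log2 fold change of 3.31, where edgeR gave 0.67 ± 0.91 (SE, adjusted p = 0.892), with 47.7, 11.9, 341, 103 and 81.6 CPM at day 28, against 218, 156, 9.46, 3.96 and 70.2 CPM at day 7. Without weights limma-voom gave 2.42 for H2-Ab1, with an adjusted p of 0.411, and the cause of these differences was not tested. For Gsc limma-voom with weights gave a log2 fold change of 2.28, with 111, 119, 49.6, 119 and 51.0 CPM at day 28, against 11.8, 54.7, 12.0, 17.2 and 17.6 CPM at day 7. In Gsc only day 7 replicate 2 lay within the day 28 range.

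The authors' deposited table for the same comparison gave 0 genes higher and 1 lower at an adjusted p under 0.05. The lower gene was Pramel51, with a log2 fold change of -19.5 in the authors' deposited table, and all of its 106 counts at day 7 lay in replicate 5 while day 28 libraries had none. At the authors' own threshold of an adjusted p of at most 0.1 there were 2 genes in the authors' deposited table, the other being Inka1, with a log2 fold change of 3.97 and 31 counts over the day 28 libraries against 10 over the day 7 libraries. Pramel51 and Inka1 both had too few counts for the edgeR test used here.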

How the data were processed

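PolyA RNA of the sorted fibroblasts was sequenced by MARS-seq, after a check of RNA integrity, per the labels' protocols. The deposited values are raw counts of each gene in each library, per the file headers. For the same comparison the authors deposited a log2 fold change per gene, and p-values, unadjusted and adjusted over genes. The submitters' processing notes name DESeq2 and the build GRCm39. How reads were aligned, assigned to genes and strands, and collapsed by molecular identifier is not given in the sources used here, and counts of overlapping or near-identical genes are uncertain.

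The table held 12799 genes, and 5980 passed filterByExpr at a minimum count of 10. The test was the robust quasi-likelihood F test of edgeR 4.0.16 with TMM scaling, in 1 model of all 19 libraries and 4 groups without covariates, with Benjamini-Hochberg adjustment over the 5980 genes and 0.05 as the threshold. R was version 4.3.3. The SE was the size of the log2 fold change over the square root of F. CPM of genes use TMM-scaled totals, and sums over lists use library totals. For principal components, log2 CPM were taken at a prior count of 2. The steps were tested on simulated data. Alternatives were DESeq2 1.42.0, limma-voom (limma 3.58.1) with quality weights, other scalings and filters, a fit of these 2 groups only, a block for the replicate number, libraries left out, and thinning to 100000 counts. limma-voom without weights was added after the data were seen. The members, the 41 gene lists and the alternatives were chosen with earlier results of these data known, so list counts are descriptions without a test.

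Genes named were the 12 higher and 12 lower with the smallest p among those with no overlap between the groups and at least 20 CPM on average, without predicted genes, then up to 4 members of each list by p, 9 genes followed throughout, and genes called by another tool or the authors' table. The interferon-stimulated genes with the smallest p that hold the motif, Igtp and Ifit1, were named for their promoters. Col1a1, Fmod, Col8a1, Irf1 and Irf9 fall outside this rule and were named after their values were seen. Promoters were matched by gene symbol to RefSeq. Python 3.11.15 was used with numpy 2.4.6, pandas 2.3.3 and, for figures, matplotlib 3.10.9. The values of 1 gene are not reported here.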

Additional observations from a re-analysis of the deposited data

Results flagged for a closer look

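Of 94 sets of values examined over the 5 libraries of a group, 12 held a library far from the other 4. For independent, normally distributed values chance gives about 1 in 20. The sets share libraries and some are marker sums mostly at 0, so 12 of 94 cannot be set against that rate. The 2 shallowest libraries gave 2 of the 12, day 28 replicate 1 at 51.6 on the first principal component and day 28 replicate 2 at -39.3 on the second. Trim47 was at 604 CPM in day 28 replicate 1, against 167 to 249 CPM in the other day 28 libraries, and its log2 fold change was 0.72 without that library. The 11 skeletal muscle markers also stood highest in day 28 replicate 1, at 333 CPM, against 77.3 to 151 CPM in the other 4. Fn1 was at 5034 CPM in day 7 replicate 3, the deepest of the 10 libraries, against 2138 to 2947 CPM in the other day 7 libraries, and Oasl2 was at 91.4 CPM there, against 47.1 to 58.9 CPM.

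Ncoa1 was at 40.8 CPM in day 28 replicate 5, against 6.20 to 15.9 CPM in the other day 28 libraries, and Npdc1 was at 404.0 CPM in day 7 replicate 2, against 283 to 318 CPM in the other day 7 libraries. Markers of rare cell types rested on few counts. B cell markers summed to 11.9 CPM in day 28 replicate 2 and to at most 2.50 CPM in the other day 28 libraries. The neutrophil list stood at 53.1 CPM in day 28 replicate 4 and at 11.8 CPM in day 7 replicate 2, and at 0 in the other 4 libraries of each group. Epithelial markers summed to 33.8 CPM in day 28 replicate 4 and to at most 7.49 CPM in the other day 28 libraries.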

How the results depend on the processing

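edgeR called 0 genes higher and 0 lower at day 28, and the counts stayed 0 with DESeq2, its size factors, scaling by library size, no filter or a stricter one, the 2 groups alone, thinning, limma-voom without weights, and with each of the 10 libraries, both day 28 libraries that stood apart, or all libraries under 150000 counts left out (range over single libraries 0 to 0). The lowest adjusted p over these was 0.0587, with the 2 groups alone, and it was 0.0865 without day 28 replicate 5. limma-voom with quality weights called 19 higher and 11 lower, and the cause of that difference was not tested. With the replicate block 0 genes were called. Deviations of same-numbered libraries correlated at 0.0492, -0.00279, 0.0206, -0.0128 and 0.0921. The best match of day 28 replicate 5 was day 7 replicate 5, while that of day 7 replicate 5 was day 28 replicate 3. Counting error in shallow libraries lowers such correlations, so low values cannot show whether the numbers pair the libraries.

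No gene followed throughout and none of the 24 named genes with no overlap changed sign under an alternative in which it was tested. Not every gene was tested in all of them, with Ret in 15 alternatives and Postn in 22. The 24 genes were picked for full separation, so leaving out libraries could hardly change their sign. Of the 31 list medians, 17 had 1 sign under every alternative and 14 had both signs. The widest ranges were those of skeletal muscle markers, from -1.89 to -0.29, mitochondrially encoded genes, from -1.61 to -0.68, mesothelial markers, from 0.05 to 0.78, pericyte and smooth muscle markers, from -0.19 to 0.51, cytokines and chemokines, from -0.52 to 0.17, and interferon-stimulated genes, from 0.10 to 0.71. The basement membrane median moved to -0.36 without the 2 libraries that stood apart and to -0.35 without all shallow libraries, and the progenitor fibroblast median to 0.35 without the shallow libraries. The WNT median moved to -0.64 with thinning, over the 8 genes then tested, and the IL-6 family median to -0.02 with limma-voom. Depth limits genes near the floor of 45.4 CPM in the shallowest library, such as Il6, Ccl2 and Ret.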

Other observations

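Other gene lists held members of both signs. Of 11 tested genes of progenitor-like fibroblasts, which are known to express Pi16, Cd34 and Dpt, 4 were positive and 7 negative, with a median of -0.02, and 8 were positive and 3 negative without day 28 replicates 1 and 2. Thy1, a surface glycoprotein of fibroblasts in that list, was at 779, 736, 2294, 854 and 1045 CPM at day 28, against 748, 476, 895, 474 and 1043 CPM at day 7, so its day 28 value was highest in replicate 3. Of 10 tested complement genes 4 were positive and 6 negative, with a median of -0.10, and of 12 tested genes of IL-6 family signalling 8 were positive and 4 negative, with a median of 0.20 that was 0.02 without the 2 libraries that stood apart. Among proteasome genes 10 were positive and 14 negative, and among 7 tested cell cycle genes 3 were positive and 4 negative. Psmb4, a beta subunit of the proteasome, had a log2 fold change of 0.61 ± 0.22 and Psmd1, a subunit of its regulatory cap, one of -0.91 ± 0.30 (SE, adjusted p = 0.459 and 0.423 by edgeR). Id3, an inhibitor of basic helix-loop-helix factors that BMP signals induce, was at 477, 463, 694, 546 and 1259 CPM at day 28, against 919, 905, 1226, 1360.3 and 1117 CPM at day 7. In Id3 only day 28 replicate 5 reached the day 7 range.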
